A study of Mus musculus with 18 samples.

Results

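The Toll-like receptors (TLRs) are described here across bone marrow-derived macrophages (BMDMs) of 3 miR-146a genotypes, resting or stimulated with lipopolysaccharide (LPS). The members are the genes of these names, 10 of the 21734 protein-coding genes of the deposited table, namely Tlr1, Tlr2, Tlr3, Tlr4, Tlr5, Tlr6, Tlr7, Tlr8, Tlr9 and Tlr13. RNA was sequenced from 18 libraries in 6 groups of 3. Wild-type (WT) mice, mice with a deletion of mir-146a (KO) and mice with a non-seed swap in it (3′F) each gave 3 resting libraries and 3 from BMDMs kept for 16 h in 1 ng/ml LPS. Per the labels the mice were 6 to 7 months old and of a mixed 129 and B6 background, 3 of each genotype, and all marrow was grown for 8 to 9 days in 10 ng/ml M-CSF. The study's methods name younger mice for its protein lysates, although it also describes RNA and protein as taken from the same replicates, so the age is not settled. The KO and 3′F alleles came from separately targeted embryonic stem cells and were bred as 2 lines, so that the 2 alleles also differ in line. Both are germline alleles, present in every cell of the mouse and not in macrophages alone.

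TLRs are transmembrane receptors that recognise molecules of microbes. TLR2, paired with TLR1 or TLR6, binds bacterial lipopeptides at the cell surface, TLR4 binds LPS with its co-receptor MD-2, and TLR5 binds flagellin. TLR3, TLR7, TLR8, TLR9 and TLR13 sit in endosomes, where receptors of this group sense nucleic acids. All but TLR3 signal through the adaptor MyD88, which leads through the IRAK kinases and TRAF6 to NF-κB, and miR-146a is a known repressor of Irak1 and Traf6 that is itself induced by NF-κB.

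The WT and 3′F microRNAs are shown first because the engineered difference between WT and 3′F lies in these letters. The seed, bases 2 to 8 from the 5′ end, is in capitals. The WT sequence is RefSeq's mature miR-146a-5p at chr11:43374435-43374456 of GRCm38, minus strand, and the 3′F sequence is the study's designed mimic without its 3′ deoxythymidines.

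miR-146a-5p WT: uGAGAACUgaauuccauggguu

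miR-146a-5p 3′F mimic: uGAGAACUgaauaagugucc

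Both hold the same seed, and over the 20 bases they share in length they differ at all 8 positions from 13 to 20. The longest annotated 3′ UTR of each TLR gene, 58 to 1496 bases in Gencode M21, was searched for the 7-base matches AGTTCTC and GTTCTCA of this seed. None of the 10 holds either match, against 18.2% of 20750 genes with an annotated 3′ UTR.

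The TLR genes lie at 8 loci, since 2 pairs are neighbours. Tlr1 (chr5:64924679-64933563) and Tlr6 (chr5:64952031-64960097), which are paralogs, are 18467 bases apart on the minus strand of chromosome 5. Tlr8 (chrX:167242696-167264329) and Tlr7 (chrX:167304929-167330558) are 40599 bases apart on the minus strand of X. Tlr13 is at chrX:106143204-106160493, Tlr2 at chr3:83836272-83841767, Tlr3 at chr8:45395665-45411080, Tlr4 at chr4:66827584-66930284, Tlr5 at chr1:182954788-182976044 and Tlr9 at chr9:106222598-106226883, all in GRCm38 (mm10).

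The libraries held 4071084 to 19818043 counts. All 8 macrophage markers were past the filter on low counts, with a summed level of 5235 to 12187 CPM, counts scaled to a library total of 1000000 after edgeR's TMM correction for composition, whereas B cell, T and NK cell, conventional dendritic cell, mast cell and erythroid lists had no gene past it. The lists for neutrophils with granulocyte precursors (6 of 9), plasmacytoid dendritic cells (2 of 6) and stromal cells (2 of 6) had some. In the first list S100a8 reached 48.3 CPM, S100a9 16.9 and Camp 6.15, while Ly6g stayed at or under 0.128. In the second Ccr9 reached 2.97 CPM and Cox6a2 2.90, while Siglech stayed at or under 0.702. The table lists protein-coding genes, so miR-146a itself was not checked in each library. A pair of libraries stood apart from their groups. Resting KO replicate 3 had 12744 CPM summed over 14 interferon-response genes, against 727 and 500 in the other 2 resting KO libraries and 104 to 259 in resting WT, and 3′F resting replicate 3 was the shallowest library and lay at 50.3 on the second principal component, where the other 2 lay at −4.50 and −5.32. The main results that rest on either library are given with and without it. In bulk RNA, fewer cells of a kind and less RNA per cell cannot be told apart.

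Tlr13, a receptor for bacterial ribosomal RNA, had the highest mean level per length in 5 of the 6 groups. In resting WT BMDMs it stood at 154 ± 6.94 (SD, n = 3) CPM per kb of exon, 2.56 times the next gene, Tlr7, and the 2 did not overlap. Tlr7, Tlr2, Tlr8 and Tlr4 followed at 60.01, 59.0, 48.4 and 40.4 CPM per kb, and each overlapped its neighbour in that order over the 3 libraries. Below a gap of 5.86-fold came Tlr6 at 6.89 and Tlr1 at 5.44, which overlapped, then Tlr3 at 1.60 and Tlr9 at 1.49, which also overlapped. Tlr5 was last at 0.215 CPM per kb, and it was last in every group.

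With LPS the order in WT changed in its upper and middle parts. Tlr2 stood at 115 CPM per kb and overlapped Tlr13 at 128, and Tlr1 at 22.6 lay above Tlr6 at 12.9 without overlap. In resting KO BMDMs Tlr13, at 182 ± 23.2 CPM per kb, overlapped Tlr2 at 135 ± 50.5. In KO BMDMs with LPS, Tlr2 had the highest level, 151 ± 22.5 CPM per kb, and Tlr13 was second at 115 ± 9.08, with no overlap between them. Summed over the 10 genes, the level was 377 ± 22.9 CPM per kb in resting WT, 363 ± 96.6 in resting 3′F and 542 ± 19.1 in resting KO. With LPS it was 428 ± 40.6 in WT, 435 ± 34.2 in 3′F and 494 ± 38.4 in KO. Tlr11 and Tlr12, the other mouse TLR genes, had at most 13 and 9 counts in a library and were not tested.

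**Figure D1:**
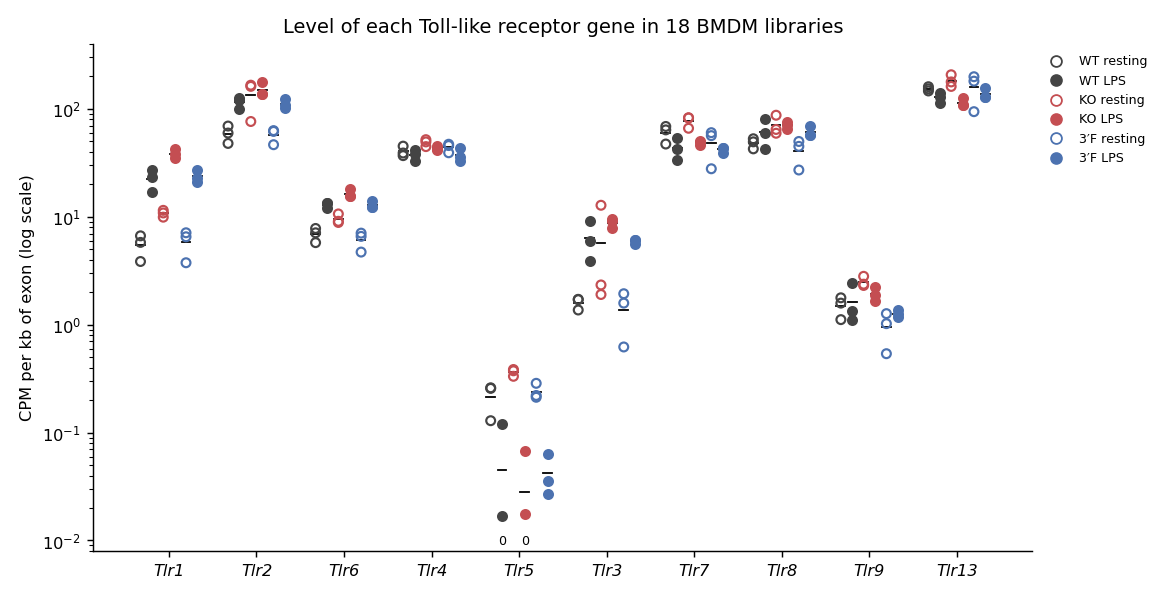
Level of each TLR gene in every library, in CPM per kb of exon on a log scale, with open circles for resting and filled circles for LPS libraries, short bars for group means and a 0 where no count was found. By group mean Tlr13 lies at the top in 5 of 6 groups and Tlr5 at the bottom in all. The LPS circles of Tlr1, Tlr3 and Tlr6 lie above the resting ones in WT and 3′F.

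The first comparison asks how the receptors respond to LPS in each genotype. Genes were called at an adjusted p under 0.05 in edgeR's quasi-likelihood test, adjusted over 11357 genes. In WT BMDMs 5 of the 10 TLR genes were called, against 28.5% of all genes tested, 4 of them higher (16.3% of all genes) and 1 lower (12.3%). In 3′F BMDMs the 5 called were again 4 higher (all genes: 17.2%) and 1 lower (14%), of 31.2% in all. In KO BMDMs 5 were called, against 26.9% of all genes, 2 higher (14.3%) and 3 lower (12.6%). The median log2 fold change over the 10 genes was 0.23 in WT, 0.45 in 3′F and −0.08 in KO, where that of all genes was 0.02, −0.01 and 0.02. In each genotype 6 of the 10 genes did not overlap between resting and LPS libraries. Of all genes tested, 47.5% did not overlap in WT, 45.2% in 3′F and 42.7% in KO.

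Tlr1, whose protein pairs with TLR2 to bind triacylated lipopeptides, rose in all genotypes. It was at 12.02, 18.1 and 20.8 CPM in resting WT replicates 1 to 3 and at 73.3, 52.5 and 85.5 with LPS. In 3′F it was at 20.4, 22.2 and 11.7 CPM at rest and at 71.9, 84.1 and 65.7 with LPS. In KO the resting values were 33.9, 31.0 and 35.8 CPM and those with LPS 110, 133 and 118. The groups did not overlap in any genotype, and the KO libraries were the highest in both states. The log2 fold change was 2.06 ± 0.23 (SE) in WT, 1.99 ± 0.23 in 3′F and 1.84 ± 0.22 in KO, with adjusted p of 7.9e-06, 9.84e-06 and 1.51e-05 in the edgeR test.

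Tlr6, whose protein pairs with TLR2 to bind diacylated lipopeptides, rose by about the same factor in each genotype. Its resting values of 21.5, 29.1 and 26.5 CPM in WT stood against 49.8, 45.1 and 49.7 with LPS. In 3′F they were 24.6, 26.3 and 17.6 CPM against 45.8, 51.9 and 46.0, and in KO 33.9, 33.0 and 39.6 against 57.6, 68.0 and 58.1. Again no resting library reached a stimulated one of its genotype. The log2 fold changes were 0.91 ± 0.14 in WT, 1.05 ± 0.14 in 3′F and 0.79 ± 0.14 in KO, with edgeR adjusted p of 0.000191, 5.6e-05 and 0.000539.

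Tlr2, the shared partner of both, was called in WT and 3′F. In WT it was at 180, 144 and 209 CPM at rest and at 364, 377 and 298 with LPS, a log2 fold change of 0.96 ± 0.23 (adjusted p = 0.00595). In 3′F the values were 187, 190 and 140 CPM against 371, 331 and 306, and the log2 fold change was likewise 0.96 ± 0.23 (adjusted p = 0.00564). In KO, resting replicates 1 and 2 held 500 and 488 CPM and replicate 3 held 230, while the LPS libraries held 414, 533 and 417. The KO groups overlapped, with a log2 difference of 0.16 ± 0.23 (adjusted p = 0.653) and a 95% interval from −0.33 to 0.65. Without resting KO replicate 3 the difference was −0.12.

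The difference of the Tlr2 response between KO and WT, an interaction, was −0.80 ± 0.33 on the log2 scale and was not called (adjusted p = 0.901 in the edgeR model), with a 95% interval from −1.50 to −0.10. It was called at −1.10 (adjusted p = 0.027) by limma-voom with sample quality weights, and at −1.12 (adjusted p = 0.0277) without both doubted resting libraries, an alternative added after the data were seen. Tlr3 gave −1.32 ± 0.75 (adjusted p = 1) in the same interaction, and 0.07 without resting KO replicate 3. None of the 10 genes was called in the KO interaction, where 0.00881% of all genes were, or in that of 3′F, where 0% were. At an unadjusted p under 0.05 the edgeR test gave 1 TLR gene (Tlr2) in the first and 0 in the second. Of the 11357 genes tested, 560 and 203 had such a p. DESeq2 called 0 in both, and limma-voom called 1 and 0. Of all genes, DESeq2 called 23 and 0, and limma-voom 57 and 0.

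Tlr4, the LPS receptor itself, was not called in any genotype by the edgeR test. It stayed between 181 and 284 CPM in all 18 libraries, and its log2 differences with LPS were −0.10 ± 0.12 in WT, −0.18 ± 0.12 in KO and −0.23 ± 0.12 in 3′F, with adjusted p of 0.161 to 0.581. The widest of the 95% intervals ran from −0.49 to 0.03. By limma-voom it was called lower in KO (−0.23, adjusted p = 0.0468) and 3′F (−0.25, adjusted p = 0.033), and without both doubted libraries edgeR called it in KO (−0.31, adjusted p = 0.0443). It had the smallest standard error of the 10 genes in each LPS comparison.

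Tlr5, the flagellin receptor, was the least abundant and fell in all 3 genotypes. It had 16, 7 and 11 counts in resting WT replicates 1 to 3 and 7, 1 and 0 with LPS. In KO 22, 20 and 14 counts stood against 4, 0 and 1, and in 3′F 16, 15 and 5 against 2, 2 and 2. On CPM no stimulated library reached a resting one of its genotype, although 0.489 in WT with LPS and 0.527 at rest were close. The log2 fold changes were −2.17 ± 0.71 in WT (adjusted p = 0.0305), −3.55 ± 0.73 in KO (adjusted p = 0.0017) and −2.54 ± 0.76 in 3′F (adjusted p = 0.0182). The 3′F libraries with LPS were all at or under 3 counts, the floor used here per library. With LPS set at that floor, the mean resting level in 3′F was 3.83-fold higher. That ratio leaves out the spread of the resting libraries and is not a lower bound. The interval of the edgeR log2 fold change in 3′F ran from −4.14 to −0.94. Leaving out 1 library at a time moved the log2 fold change between −4.31 (without WT LPS replicate 1) and −1.63 (without WT LPS replicate 3) in WT. It moved between −5.04 and −3.07 in KO, and between −2.81 and −2.26 in 3′F. The WT call was lost without any of 4 of the 6 libraries compared (adjusted p up to 0.111), and the 3′F call without LPS replicate 1 or 2 (up to 0.0917).

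**Figure D2:**
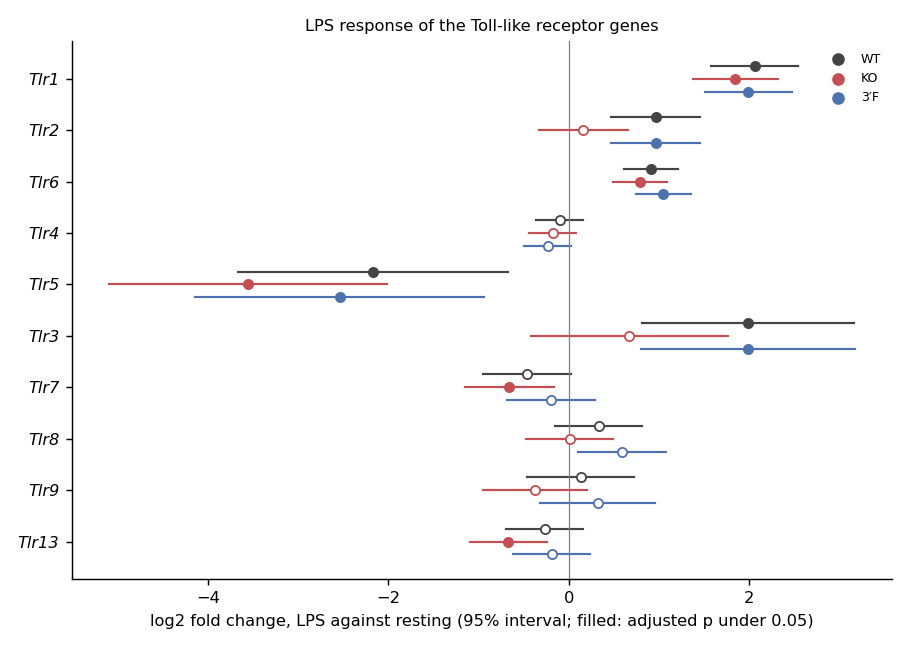
LPS response of the 10 TLR genes in WT, KO and 3′F, as the log2 fold change of the edgeR fit with its 95% interval, filled where the adjusted p is under 0.05. Tlr1 and Tlr6 lie near 2 and 1 in all genotypes, Tlr5 lies below 0 in all, and the KO points of Tlr2 and Tlr3 lie nearer to 0 than those of WT and 3′F.

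Among the endosomal receptors the edgeR test called Tlr3 in WT and 3′F, and Tlr7 and Tlr13 in KO. Tlr3, a receptor for double-stranded RNA, was at 6.70, 8.36 and 8.41 CPM in resting WT and at 29.0, 19.2 and 44.6 with LPS. In 3′F it was at 9.48, 7.76 and 3.04 CPM at rest and at 27.5, 29.7 and 30.0 with LPS. In both genotypes the states did not overlap, and the log2 fold change was 1.99, with a SE of 0.55 in WT (adjusted p = 0.0131) and 0.56 in 3′F (adjusted p = 0.0136). Without WT LPS replicate 3 the WT value was 1.63 (adjusted p = 0.0644). In KO the resting libraries held 11.4, 9.33 and 62.6 CPM and those with LPS 44.7, 46.6 and 38.7. Resting replicate 3 was thus higher than every stimulated library, and the log2 difference was 0.67 ± 0.52 (adjusted p = 0.368). Without it the difference was 2.06 (adjusted p = 0.000106).

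Tlr3 is given beside the interferon-response list, library by library. The 2 highest summed levels of that list, 17624 CPM in WT LPS replicate 3 and 14875 in KO LPS replicate 2, went with 44.6 and 46.6 CPM of Tlr3. The lowest among stimulated libraries, 3229 CPM in WT LPS replicate 2, went with 19.2 CPM of Tlr3, the lowest stimulated value. The 12744 CPM of resting KO replicate 3 stood beside 62.6, the highest Tlr3 value. The 2 did not follow each other within every group. Among LPS-stimulated 3′F libraries the lowest list sum, 5866 CPM, went with the highest Tlr3 level, 30.0, and among LPS-stimulated KO libraries 11581 CPM went with 38.7 and 11206 with 44.7. The part of interferon in the Tlr3 values was not tested.

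**Figure D3:**
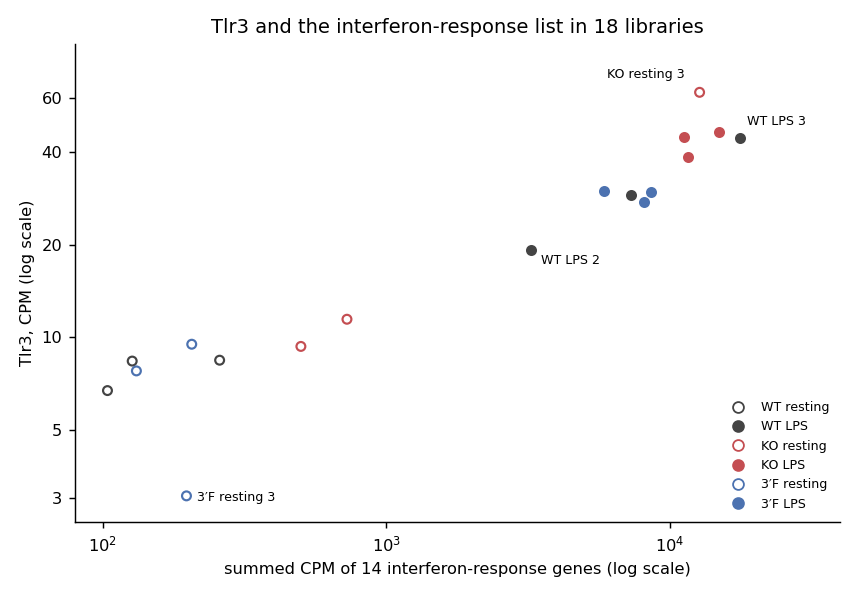
Tlr3 in CPM against the summed CPM of 14 interferon-response genes, 1 circle per library, both axes on a log scale. Resting KO replicate 3, with 12744 and 62.6 CPM, lies among and above the LPS libraries, and 3′F resting replicate 3 lies lowest at 3.04 CPM.

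Tlr7, a receptor for single-stranded RNA, was at 328, 327 and 262 CPM in resting KO and at 185, 195 and 201 with LPS, with no overlap and a log2 fold change of −0.66 ± 0.23 (adjusted p = 0.0442). Leaving out any of 5 of the 6 libraries ended that call (adjusted p up to 0.128). In WT its log2 difference was −0.47 ± 0.23 (adjusted p = 0.147) and in 3′F −0.19 ± 0.23 (adjusted p = 0.553), both with overlap. In WT limma-voom called it (−0.57, adjusted p = 0.00256), as did edgeR without both doubted libraries (−0.50, adjusted p = 0.0118). Without 3′F resting replicate 3, where Tlr7 was at 110 CPM against 224 and 239 in the other 2, the 3′F value was −0.50 (adjusted p = 0.0467).

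Tlr13 gave the same picture at a higher level. In KO it was at 656, 723 and 842 CPM at rest and at 442, 508 and 446 with LPS, a log2 fold change of −0.67 ± 0.20 (adjusted p = 0.0204). The call was lost without resting KO replicate 3 (adjusted p = 0.0514) and without LPS replicate 1 or 3 (0.0716 and 0.0657). In WT, 596, 623 and 652 CPM stood against 568, 462 and 526, which did not overlap but gave −0.27 ± 0.20 (adjusted p = 0.353), and −0.30 (adjusted p = 0.0223) without both doubted libraries. In 3′F the resting values of 734, 807 and 383 CPM overlapped the LPS values of 522, 639 and 527. The log2 difference there was −0.19 ± 0.20 (adjusted p = 0.493), and −0.50 (adjusted p = 0.00712) without resting replicate 3.

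Tlr8, the neighbour of Tlr7 on X, was not called in any genotype by the edgeR test. Its log2 differences were 0.33 ± 0.23 in WT, 0.01 ± 0.23 in KO and 0.59 ± 0.23 in 3′F (adjusted p = 0.306, 0.977 and 0.0608). Its 3′F libraries did not overlap between states, with 156, 173 and 94.3 CPM at rest and 200, 242 and 199 with LPS. Without resting replicate 3 the 3′F difference was 0.33, whereas limma-voom called it at 0.36 (adjusted p = 0.0429). Tlr9, which senses unmethylated CpG DNA, was below 10 CPM everywhere and was not called by edgeR either, at 0.13 ± 0.28 in WT, −0.37 ± 0.27 in KO and 0.32 ± 0.30 in 3′F.

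The second comparison asks what loss of miR-146a does to the receptors. In resting BMDMs 3 of the 10 TLR genes were called between KO and WT, against 9.4% of all genes tested, and all 3 were higher in KO, against 5.12% of all genes. The log2 difference was above 0 for all 10 genes, with a median of 0.64 where that of all genes was 0.02. The 3 were the lipopeptide receptor genes Tlr1, Tlr2 and Tlr6. Marker lists also differed between these groups. The 8 macrophage markers summed to 6478 to 7691 CPM in resting KO against 5677 to 5931 in WT, and the plasmacytoid dendritic cell list, with 2 of 6 genes past the filter, to 1.99 to 3.21 against 0.753 to 1.05. The neutrophil list overlapped, at 15.7 to 53.3 CPM against 15.1 to 23.4. Their part in the TLR differences was not tested.

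Tlr2 had the largest difference of those called. Its 230 to 500 CPM in the resting KO libraries lay above the 144 to 209 in WT, a log2 difference of 1.19 ± 0.24 (2.29-fold, adjusted p = 0.00584). Tlr1 was at 31.0 to 35.8 CPM in KO against 12.02 to 20.8 in WT, 0.99 ± 0.23 (1.99-fold, adjusted p = 0.0123). Tlr6 was at 33.0 to 39.6 CPM against 21.5 to 29.1, 0.47 ± 0.14 (1.38-fold, adjusted p = 0.0493), also without overlap. The Tlr6 call was lost when any 1 of the 6 libraries was left out (adjusted p up to 0.199), and that of Tlr1 without WT resting replicate 1 (adjusted p = 0.0614). A fit of the 6 compared libraries alone called none of the 3, where 396 genes were called in all. Without resting KO replicate 3 the count was 2 (Tlr1 and Tlr2), where 808 genes were called in all against 1067 in the main fit. Without WT resting replicate 1 the count was 1 (Tlr2), where 584 genes were called in all.

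Tlr3 was at 62.6 CPM in resting KO replicate 3 and at 11.4 and 9.33 in the other 2, against 6.70 to 8.41 in WT. The log2 difference of 1.803 ± 0.56 was not called by the edgeR test (adjusted p = 0.0521), was called by DESeq2 (adjusted p = 0.0274) and was 0.42 without resting KO replicate 3. Tlr9, at 8.04, 8.26 and 9.77 CPM against 3.88 to 6.17, did not overlap either and gave 0.74 ± 0.28 (adjusted p = 0.111). Tlr8 gave 0.54 ± 0.23 (adjusted p = 0.16) and Tlr5 0.75 ± 0.55 (adjusted p = 0.457), neither overlapping. Tlr4, Tlr7 and Tlr13 were between 0.25 and 0.36 higher on the log2 scale and were not called by the edgeR test. Among them Tlr13 alone did not overlap. In all, 8 of the 10 TLR genes did not overlap between resting KO and WT, against 26.8% of all genes. By limma-voom Tlr4 was called (0.38, adjusted p = 0.0116).

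With LPS, 1 TLR gene was called between KO and WT, against 4.79% of all genes, and it was higher in KO, against 1.89% of all genes. Tlr1 was at 110 to 133 CPM in KO and at 52.5 to 85.5 in WT, a log2 difference of 0.77 ± 0.21 (1.71-fold, adjusted p = 0.0498). The call was lost without 5 of the 6 libraries in turn (adjusted p up to 0.253). Tlr2 was higher by 0.39 ± 0.23 (adjusted p = 0.42) and Tlr6 by 0.35 ± 0.14 (adjusted p = 0.182), both without overlap between the libraries but not called by the edgeR test. The same held for Tlr4, higher by 0.19 ± 0.12 (edgeR adjusted p = 0.464). In all, 4 of the 10 TLR genes did not overlap, against 33% of all genes. By limma-voom Tlr6 was called (0.29, adjusted p = 0.0236), as it was by edgeR without both doubted resting libraries (0.33, adjusted p = 0.0433).

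**Figure D4:**
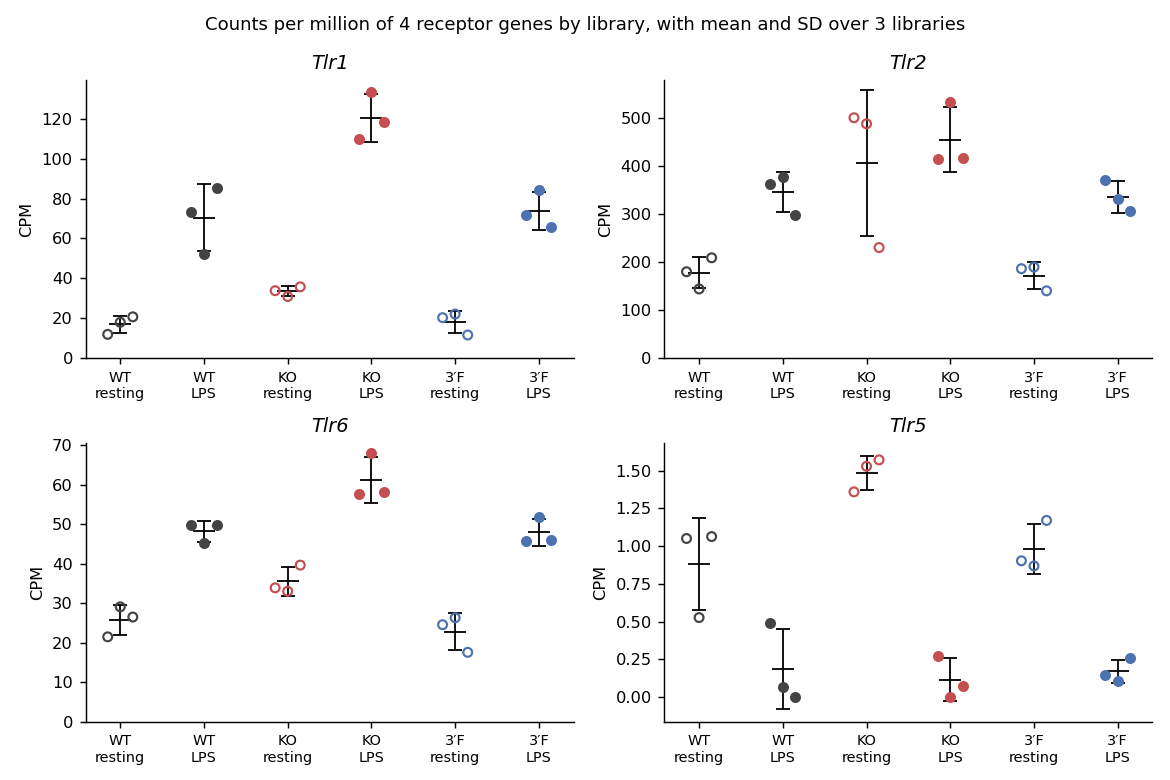
CPM of Tlr1, Tlr2, Tlr6 and Tlr5 in every library, open circles for resting and filled for LPS, with the mean and SD over 3 libraries in black. The resting KO circles of Tlr1, Tlr2 and Tlr6 lie above those of WT and 3′F, and resting KO replicate 3 of Tlr2, at 230 CPM, lies far below the other 2.

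The third comparison asks whether the seed-retaining 3′F allele differs from WT. None of the 10 TLR genes was called in resting BMDMs, where 0% of all genes were, or with LPS, where 0.00881% were. At an unadjusted p under 0.05 the edgeR test also gave 0 in each state, and DESeq2 and limma-voom called 0. Of the 11357 genes tested, 557 had such a p at rest and 106 with LPS. The log2 differences ran from −0.55 (Tlr9) to 0.14 (Tlr1) at rest and from −0.36 (Tlr9) to 0.12 (Tlr13) with LPS, and every TLR gene overlapped between the 2 genotypes in both states. Of all genes tested, 7.12% did not overlap at rest and 7.87% with LPS. A missed threshold does not show that the alleles act alike. For Tlr2 the 95% interval of the difference ran from −0.54 to 0.45 at rest and for Tlr1 from −0.34 to 0.63, whereas the differences of KO from WT were 1.19 and 0.99. For Tlr3 and Tlr5 the intervals were wide, from −1.31 to 1.14 and from −1.14 to 1.33.

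**Figure D5:**
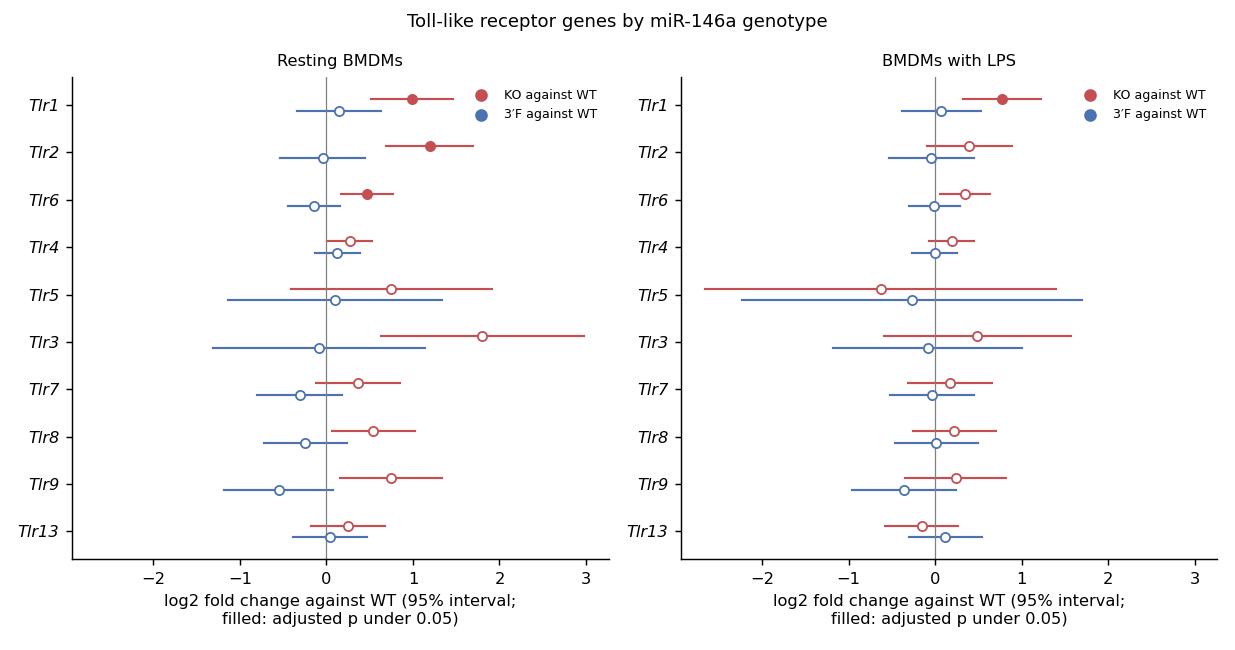
Log2 differences of KO (red) and 3′F (blue) from WT for the 10 TLR genes, in resting and in LPS-stimulated BMDMs, with 95% intervals from the edgeR fit, filled where the adjusted p is under 0.05. At rest all 10 KO points lie right of 0, filled for Tlr1, Tlr2 and Tlr6, and no 3′F point is filled.

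KO and 3′F were also compared directly, with libraries of KO that the comparison with WT shares. In resting BMDMs 6 TLR genes were called, against 12.9% of all genes, and all 6 were higher in KO, against 6.79% of all genes. These were Tlr2 at 1.24 ± 0.24 (adjusted p = 0.00616), Tlr9 at 1.29 ± 0.29 (0.0112), Tlr6 at 0.61 ± 0.14 (0.0138), Tlr1 at 0.85 ± 0.23 (0.0242), Tlr8 at 0.79 ± 0.23 (0.0351) and Tlr3 at 1.89 ± 0.56 (0.0378), with edgeR adjusted p in brackets. Resting 3′F replicate 3 had the lowest level of its group for all 6, from 1.87 CPM of Tlr9 to 140 of Tlr2. Without it 3 were called, where 735 genes were called in all against 1464 in the main fit. Without resting KO replicate 3 also 3 were called (918 in all), and without both 2 (749 in all). Tlr2 (1.42) and Tlr9 (1.05) were the 2, and Tlr3 was at 0.29 and Tlr8 at 0.41 there. Tlr8 was at 0.57 without 3′F replicate 3 alone. A fit of these 6 libraries alone called 0, where 16 genes were called in all.

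With LPS no TLR gene was called between KO and 3′F, against 3.88% of all genes. The edgeR test gave 2 at an unadjusted p under 0.05, Tlr1 at 0.70 ± 0.21 (adjusted p = 0.0832) and Tlr6 at 0.35 ± 0.14 (adjusted p = 0.188). Of the 11357 genes tested, 1921 had an unadjusted p under 0.05 there. DESeq2 called 1, limma-voom 4, and a fit of the 2 groups alone 4. Genes called in all also rose, from 441 in the main fit to 801, 1842 and 1661. Tlr1 was among those called each time, at 0.66 to 0.70.

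The genes that serve these receptors were counted by list, to be read against the shares of all genes called. With LPS these were 16.3% higher and 12.3% lower in WT, 14.3% and 12.6% in KO, and 17.2% and 14% in 3′F, and for resting KO against WT 5.12% of all genes were higher. Of 6 co-receptor genes 2 rose in WT and 1 in KO, and in 3′F 1 rose and 1 fell. Cd14, which hands LPS to TLR4, rose in WT (1.12 ± 0.16), KO (0.66 ± 0.16) and 3′F (1.07 ± 0.16), and Ly96, which encodes MD-2, rose in WT (0.52 ± 0.15, adjusted p = 0.0169). Cd36, a scavenger receptor, was the gene that fell in 3′F (−0.67 ± 0.21, adjusted p = 0.0223). Of 12 genes for chaperones, trafficking and processing of endosomal receptors, 3 rose and 1 fell in WT, led by Slc15a3, an endosomal histidine and peptide transporter, at 2.14 ± 0.25. The same counts were 3 and 1 in KO, and 3 and 0 in 3′F. In resting KO against WT, 2 of the 12 were called, both higher: Slc15a3 (0.99 ± 0.25, adjusted p = 0.0186) and Unc93b1 (0.65 ± 0.16, adjusted p = 0.0178), the chaperone that carries nucleic acid-sensing TLRs to endosomes. At rest, Ly86, which encodes the MD-1 partner of the TLR-like protein RP105, exceeded WT in KO by 0.85 ± 0.23 on the log2 scale (adjusted p = 0.0314).

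Of 16 adaptor and kinase genes, 15 were tested, and 4 rose in WT, 4 in KO and 6 in 3′F, with none falling. The largest were Ikbke, a kinase upstream of interferon induction, at 1.79 ± 0.17 in WT, and Myd88 at 1.61 ± 0.23. In resting KO against WT, 3 were higher: Ikbke (0.93 ± 0.16), Myd88 (0.90 ± 0.23) and Irak2 (0.80 ± 0.19), with adjusted p of 0.0033, 0.0208 and 0.0171. Irak1 and Traf6, named for their known repression by miR-146a, gave 0.22 ± 0.18 and 0.26 ± 0.16 there and were not called (adjusted p = 0.527 and 0.357). Without resting KO replicate 3, the adaptor list again had 3 higher, the chaperone list 1 and the co-receptor list 0. In all, 808 genes were called without that library and 1067 with it.

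Of 12 negative regulators of TLR signalling, 6 rose and 1 fell with LPS in WT, and 5 rose and 1 fell in KO and in 3′F. Irak3, a pseudokinase that holds back MyD88 signalling, rose most, by 2.69 ± 0.20 in WT, 2.65 ± 0.20 in KO and 3.10 ± 0.20 in 3′F, and Il1rl1, which encodes the IL-33 receptor, was the one that fell. In resting KO against WT, 3 were higher and 1 lower, with Irak3 at 0.71 ± 0.19 and Il1rl1 at −1.31 ± 0.37. Without resting KO replicate 3 the counts were 0 and 1, where 808 genes were called in all against 1067 with it. Of 9 cytosolic nucleic acid sensors, 7 rose and 1 fell with LPS in WT, and Zbp1, Ddx58 and Dhx58 led at 6.37 ± 1.16, 3.76 ± 0.62 and 3.41 ± 0.62. In resting KO against WT 5 of the 9 were higher (1067 genes called in all), and without resting KO replicate 3, 2 of the 9 (808 in all). In KO 4 of the 9 rose with LPS (3059 genes called in all), and 7 without that library (4040 in all). In 3′F 6 rose. No gene of these lists was called between 3′F and WT in either state.

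The promoter sequences of the 3 genes called in resting KO are shown because all 3 were higher there than in WT. Within resting KO the 3 did not vary together, since replicate 3 was lowest for Tlr2 and highest for Tlr1 and Tlr6. RefSeq's table of promoters on GRCm38, 250 bases before to 50 after each start, matched 8 of the 10 genes with 10 promoters, and Tlr4 and Tlr7 were not among them. Each line gives the longest stretch before a RefSeq start that lies outside the gene's own exons, 5′ to 3′ on the gene's strand. Capitals mark matches on either strand, lying whole within the stretch, to the core of the interferon-stimulated response element (GAAA, any 2 bases, GAAA), to a κB core in 2 spacings (GGGA, any 2 bases or any 1 base, TTCC), to that of the gamma-activated site (TTCNNNGAA) or to a PU.1 core (GAGGAAGT).

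Tlr1, chr5:64933564-64933808, minus strand: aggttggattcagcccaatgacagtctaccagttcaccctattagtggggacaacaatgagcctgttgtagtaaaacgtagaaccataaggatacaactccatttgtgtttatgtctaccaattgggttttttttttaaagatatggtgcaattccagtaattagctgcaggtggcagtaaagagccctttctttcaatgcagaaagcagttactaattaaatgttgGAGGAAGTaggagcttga

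Tlr2, chr3:83841768-83841858, minus strand: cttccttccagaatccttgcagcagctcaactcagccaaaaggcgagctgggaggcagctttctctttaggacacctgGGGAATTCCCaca

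Tlr6, chr5:64959167-64959416, minus strand: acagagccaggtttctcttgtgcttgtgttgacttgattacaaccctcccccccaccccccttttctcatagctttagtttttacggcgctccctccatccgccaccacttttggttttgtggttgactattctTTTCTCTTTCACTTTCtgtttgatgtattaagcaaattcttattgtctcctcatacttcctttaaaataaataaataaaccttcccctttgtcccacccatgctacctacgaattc

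The Tlr2 stretch holds the κB core with 1 free base once on each strand, 1 base apart and overlapping, 172 and 171 bases before the start, and 1.68% of 32851 promoters hold that motif. That of Tlr6 holds the interferon-stimulated response element core 2 times on the minus strand of the gene, 116 and 110 bases before the start and overlapping (3.44% of promoters). This stretch lies inside the Tlr6 gene as annotated by Gencode, before an internal start, and the stretch beyond the gene's 5′ end, chr5:64960098-64960298, held no match. That of Tlr1 holds GAGGAAGT 23 bases before the start (3.2% of promoters), and the promoter of Tlr9 also holds this motif. The κB core with 2 free bases was found for Tlr3 alone (1.47% of promoters), and TTCNNNGAA for Tlr1, Tlr6 and Tlr8 (8.3%). A match is a run of letters and not shown to be a site that is bound.

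Over the 6 group means of log2 CPM, each centred on its own mean, the genes nearest to Tlr1 among 10136 candidates were Lacc1 and Adgb, with root-mean-square differences of 0.0708 and 0.0753 where Tlr1 itself ranged over 2.85. Nearest to Tlr2 were Ifitm6 (0.0873) and Tgm2 (0.0958), to Tlr3 Mxd1 (0.0887) and Il13ra1 (0.0914), and to Tlr6 Rhoq (0.0289) and Slc25a12 (0.0385). Nearest to Tlr7 were Kcna3 (0.0519) and Rnf167 (0.0653), to Tlr8 Scamp2 (0.039) and Tesk1 (0.0415), to Tlr13 Nbeal2 (0.0411) and Tfeb (0.0453), and to Tlr9 Pqlc3 (0.16) and Ldlrad3 (0.174). Tlr5 had no gene nearer than Agmo at 0.19. These are likenesses over 6 points from the same 18 libraries.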

How the data were processed

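RNA was measured in 18 libraries of mouse BMDMs in 6 groups of 3, grouped by the labels. The authors removed ribosomal RNA from total RNA, made strand-specific libraries, trimmed reads with cutadapt 1.8.3, aligned them with HISAT2 2.1.0 to mm10 and assigned them to Gencode genes with featureCounts 1.5.3. The deposited values are raw counts per gene for 21734 protein-coding genes, 4071084 to 19818043 per library. No p-value of the authors was used.

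Counts were scaled by TMM (0.812 to 1.15), filtered by edgeR's filterByExpr to 11357 genes, and fitted over all 18 libraries with edgeR 4.0.16 (quasi-likelihood, R 4.3.3) in 11 two-sided comparisons, with Benjamini-Hochberg adjustment over all genes tested and a threshold of 0.05. SE is the log2 fold change over the square root of F, and intervals are 95%. CPM per kb divides by exon length. The scripts were tested on simulated data. Alternatives were DESeq2 1.42.0, RLE factors, no filter, limma-voom (limma 3.58.1) with quality weights, replicate blocks, the compared groups alone and leaving out each library. Named genes were the 10 TLR genes, the called genes of the pathway lists with the largest changes, and the 2 nearest genes per receptor. The members and lists were chosen with earlier results of these data known. The labels name 3 mice of each genotype but do not say which libraries share a mouse. The column headers give a resting and an LPS library of a genotype the same letter, which may mark a mouse. The main model has no term for a shared mouse, so p-values measure the spread between libraries, which may be in part technical. If the letter marks a mouse, the LPS responses and interactions were tested there without their pairing. Reads shared by paralogs such as Tlr1 and Tlr6 could be split or lost in counting. The miRNA and promoter letters came from RefSeq on GRCm38, and the 3′F letters from the study's list of oligonucleotides.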

Additional observations from a re-analysis of the deposited data

Results flagged for a closer look

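The LPS response of Tlr9, taken as the log2 CPM of the stimulated library minus that of the resting library of the same genotype and replicate number, had a mean of −0.38 in KO and 0.48 in 3′F. It was below 0 at all 3 numbers in KO (−0.06, −0.34 and −0.74) and above 0 at all 3 in 3′F (0.20, 0.09 and 1.16), and this opposite direction in every library pair is what set it apart. In WT it was 0.26, −0.67 and 0.61. The difference between KO and 3′F was not tested, the LPS response of Tlr9 was not called in any genotype by the edgeR test, and the 1.16 is from resting replicate 3 of 3′F, the shallowest library.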

How the results depend on the processing

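Tlr13 had the highest mean level in 5 of 6 groups under each scaling and with each library left out, and the order below it was not compared. With plain total counts 12 group levels moved by more than 1 SD. Under the alternatives other than single left-out libraries, 68 counts of called TLR genes stayed within 1.5 times and 14 did not. The number of all genes called in each fit follows in brackets. LPS-stimulated KO against 3′F had 0 (441), 1 with DESeq2 (801), 4 with limma-voom (1842) and 4 with the 2 groups alone (1661). It had 2 without both resting replicates 3 of KO and 3′F (1387). LPS-stimulated KO against WT had 1 (544), 0 with RLE factors (540), 2 with limma-voom (1777) and 2 without both (1618). The LPS response of 3′F had 5 (3546), and 9 with limma-voom (5478). The KO interaction had 0 (1), 1 with limma-voom (57) and 1 without both (33). Resting KO against WT had 3 (1067), and 0 with the 2 groups alone (396). Resting KO against 3′F had 6 (1464), 0 with the 2 groups alone (16) and 2 without both (749). The cause was not tested.

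The replicate numbers were checked for pairing: resting and LPS libraries of 1 genotype and number had correlations of their deviations from 0.0283 to 0.318, and 8 of 9 were closest to their own number. Such libraries also share a letter in their column headers, which is not said to mark a mouse. They were not treated as pairs in the main model. With the replicate number as a block, LPS-stimulated KO against WT had 0 called (Tlr1 adjusted p = 0.0652), the LPS response of KO had 4, resting KO against WT 2 and resting KO against 3′F 4. All genes called there numbered 579, 3087, 963 and 1279 in that order. With a block per genotype and number, the LPS response of WT had 4 (Tlr5 adjusted p = 0.0502) and that of 3′F 6 (Tlr8 at 0.63, adjusted p = 0.0382). In all, 3040 and 3323 genes were called in these 2.

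These log2 differences changed sign, none of them called either way. The LPS response of Tlr8 in KO was −0.0237 with DESeq2, −0.0236 with RLE factors, −0.0382 without a filter and −0.0371 with the groups alone. That of Tlr9 in WT was −0.10 with limma-voom. With limma-voom and without both libraries, the LPS response of Tlr2 in KO was −0.13 and −0.20, resting KO against 3′F for Tlr13 was −0.14 in each, and the KO interaction of Tlr3 was 0.0865 and 0.0273.

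Leaving out 1 library at a time, the ranges were −0.28 to 0.35 for Tlr9 with LPS in WT, −0.0945 to 0.20 for Tlr8 and −0.12 to 0.34 for Tlr2 with LPS in KO, −0.50 to 0.00983 for Tlr13 with LPS in 3′F, −2.12 to 1.51 for Tlr5 in LPS-stimulated KO against WT, −1.85 to 0.17 for Tlr5 in LPS-stimulated KO against 3′F, −0.0536 to 0.41 for Tlr13 in resting KO against 3′F, and −1.74 to 0.0682 for the KO interaction of Tlr3. Counts of called TLR genes ranged from 3 to 5 for LPS in WT and in KO, 4 to 7 in 3′F, 1 to 3 for resting KO against WT, 0 to 1 for LPS-stimulated KO against WT and 3 to 6 for resting KO against 3′F. In the same order, all genes called ranged from 2213 to 2932, 2154 to 4040, 2490 to 3594, 392 to 1047, 180 to 416 and 735 to 1811. The largest absolute log2 difference of a TLR gene ranged from 0.38 to 0.79 between resting 3′F and WT, 0.31 to 1.87 with LPS, 0.19 to 1.77 in the 3′F interaction and 1.24 to 2.87 in the KO interaction, the high ends of the last 3 being Tlr5. Depth limits Tlr5, with 0 to 22 counts per library.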
